A study of Caenorhabditis elegans with 6 samples.

Results

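Cuticlins and related apical matrix proteins of Caenorhabditis elegans were followed as a family of 40 genes among the 22416 genes with read counts. The family was chosen by gene name: 6 genes named cut, 29 named cutl (cuticlin-like), and noah-1, noah-2, fbn-1, let-653 and dyf-7. The naming rule itself uses no difference between the groups. RNA came from pools of whole worms of strain CL2006, whose genotype, unc-54p::Abeta, was shared by all samples: the promoter of a body wall muscle myosin gene drives the amyloid-β peptide. Worms were raised at 20 °C on bacteria with the empty RNAi vector (EV) until the last larval stage, L4. After that, 3 pools stayed on EV as the control, and 3 received nol-56 RNAi by feeding. Progeny were taken away by daily washing and transfer, and worms were harvested on day 6 of adulthood. Feeding RNAi reaches many tissues, so the treatment was not aimed at one cell type. Below, the groups are called the EV pools and the RNAi pools, and values in sets of 3 are in the order of pools 1, 2 and 3.

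The surface of a worm, and the inner face of its narrow tubes, is covered by an apical extracellular matrix. Collagens make up most of the cuticle, and cuticlins are part of its insoluble, non-collagen fraction. Most cuticlins and most of the other proteins named here carry a zona pellucida (ZP) domain, a module through which secreted proteins assemble into filaments and sheets. In embryos and before each moult, a temporary matrix with NOAH-1, NOAH-2, FBN-1 and LET-653 lies on the epidermis or in tubes and shapes them before the cuticle is laid down. Cuticlins also take part in the alae, the ridges that run along the body at certain stages. The authors' gene descriptions name a ZP domain for 22 of the 40 genes.

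Total gene counts were 21138955 to 34841215 per library. The targeted transcript, nol-56, followed the labels in every pool, with 253 to 270.2 CPM in the EV pools and 15.7 to 20.8 CPM in the RNAi pools. CPM is the count per 1000000 reads after TMM scaling of the library sizes. The family held 0.0506% to 0.0591% of all counts in the EV pools and 0.0239% to 0.025% in the RNAi pools. Whether the pools were grown as separate cultures is not in the labels, and p-values therefore cover only the spread between these pools, which may be technical. Fold changes compare RNAi with EV pools. A gene was called where its adjusted p was under 0.05 (edgeR quasi-likelihood test, two-sided, Benjamini-Hochberg adjustment over all 14677 genes tested), and every adjusted p below is of this kind unless another tool is named.

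Most cuticlin and matrix transcripts were lower in the RNAi pools. Of the 40 genes, 35 had enough reads to be tested, and of these 22 fell, 7 rose and 6 did not pass the threshold. The share called in either direction, 82.9%, was near the 88% of all genes tested that were called. The split by direction was further from the background. Of the tested family 62.9% fell, against 40.8% of all genes tested, and 20% rose, against 47.2%. A fall of 2-fold or more was found for 13 genes of the family (37.1%), against 12.4% of all genes tested. A rise of that size was found for 2, against 24.8%. The median log2 fold change of the tested family was −0.88, against 0.16 for all genes tested. The latter depends on the scaling and was 0.02 under RLE scaling (family median −1.01) and 0.41 under upper-quartile scaling (family median −0.63).

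The groups did not overlap in 30 of the 35 tested genes, 22 with the RNAi pools lower and 8 with them higher. Among all genes tested, the shares without overlap were 40.9% lower and 47.2% higher. The summed level of all 40 genes was 526, 585.5 and 603 CPM in the EV pools, and 241, 239 and 233 CPM in the RNAi pools. Every RNAi pool was thus below every EV pool. The means were 571.5 ± 40.3 and 237.5 ± 3.99 CPM (SD, n = 3 per group), a ratio of 2.41 (exact two-sided permutation test, p = 0.1, the smallest that 3 against 3 samples can give). In RNA from whole worms, fewer cells of a type and less RNA per cell cannot be told apart.

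**Figure D1:**
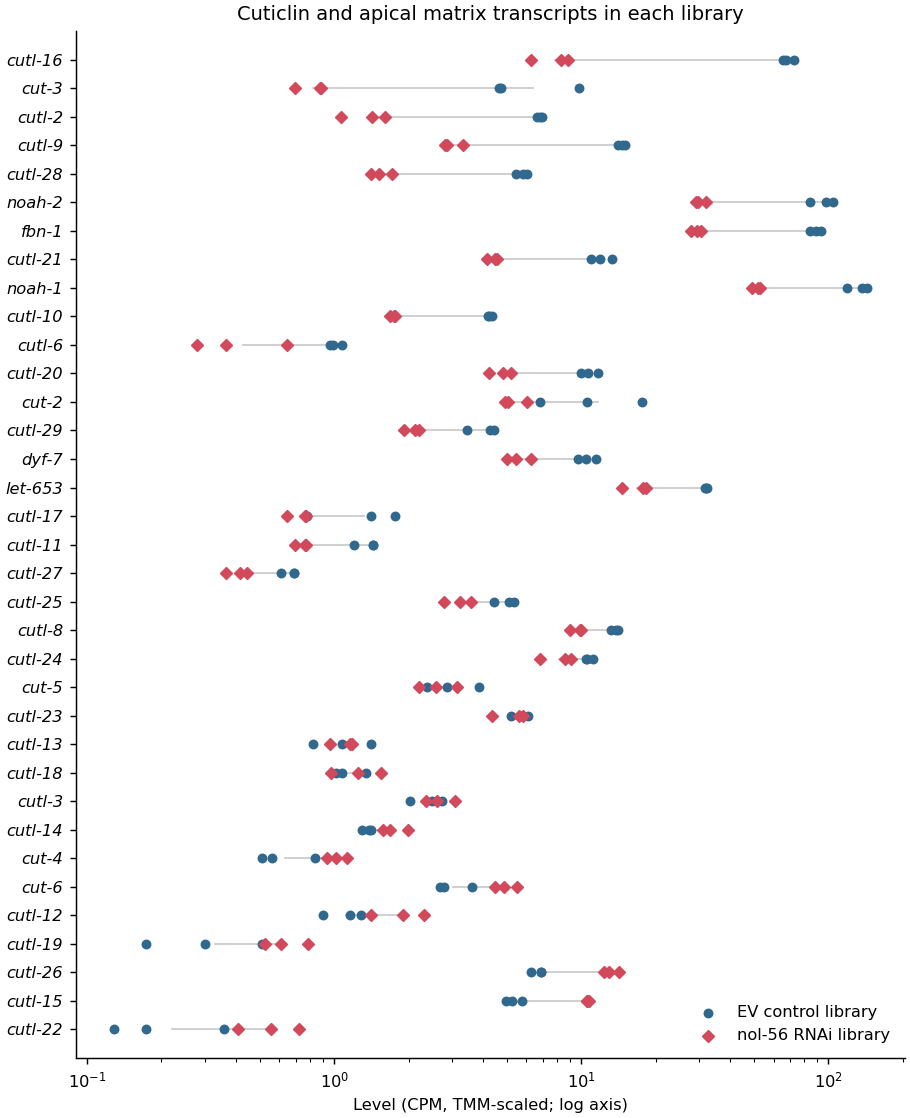
Level of each of the 35 tested genes in each of the 6 libraries, in CPM on a log axis. Circles are EV libraries, diamonds are nol-56 RNAi libraries and the grey line joins the group means; genes are ordered by fold change, from cutl-16 (8.83-fold lower) at the top to cutl-22 (2.45-fold higher) at the bottom.

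All 5 genes outside the cut and cutl series fell. noah-1 encodes an epidermal matrix protein named after a fly protein of mechanosensory organs. It was at 119, 136.5 and 143 CPM in the EV pools and at 52.9, 51.7 and 49.1 CPM in the RNAi pools. The groups were far apart, and noah-1 fell 2.60-fold (log2 fold change −1.38 ± 0.06 SE, adjusted p = 7.46e-16). Its relative noah-2, which acts with it in the embryonic sheath, stood at 84.4, 97.4 and 104.8 CPM in the EV pools and at 31.96, 29.2 and 29.7 CPM in the RNAi pools. Again no pools of the groups overlapped, and noah-2 fell 3.16-fold (−1.66 ± 0.07, adjusted p = 3.93e-16). The noah-1 gene lies on chromosome I, 5874416 to 5878958, and noah-2 on chromosome IV, 14091254 to 14096626 (WBcel235).

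The pair did not keep its proportion. The log2 ratio of noah-1 to noah-2 reads was 0.50, 0.49 and 0.45 in the EV pools, and 0.73, 0.83 and 0.73 in the RNAi pools. The groups did not overlap (exact two-sided permutation test, p = 0.1, the smallest possible here). This ratio is taken within a library, so the scaling does not enter it.

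fbn-1 encodes a large fibrillin-like matrix protein that helps the embryonic epidermis and the pharynx withstand mechanical force. It was at 84.1, 93.5 and 88.8 CPM in the EV pools and at 29.4, 30.4 and 27.8 CPM in the RNAi pools. No pools overlapped, and fbn-1 fell 3.04-fold (−1.61 ± 0.05, adjusted p = 2.51e-17). Exons of fbn-1 (chromosome III, 7625386 to 7641078) overlap those of upp-1 on the other strand. Whether the counting used strand is not known, and without it reads of an overlap cannot be assigned to either gene. upp-1 had a log2 fold change of 0.20, opposite in sign to that of fbn-1.

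let-653 encodes a lumen protein that keeps the excretory duct and the vulva open while they form. It was very even among the EV pools, at 32.3, 31.96 and 31.8 CPM. In the RNAi pools it was at 14.6, 17.7 and 18.2 CPM, all below every EV pool, and it fell 1.90-fold (−0.93 ± 0.07, adjusted p = 2.51e-11). dyf-7, whose protein anchors the dendrite tips of sensory neurons in the embryo, was at 9.66, 11.4 and 10.4 CPM in the EV pools and at 4.99, 5.45 and 6.24 CPM in the RNAi pools. The groups were separate, and dyf-7 fell 1.91-fold (−0.93 ± 0.10, adjusted p = 2.11e-08). Its partner in dendrite anchoring, dex-1, named after its values were seen, fell as well, from 50.1 ± 0.831 to 32.3 ± 1.99 CPM (−0.63). Neuron markers rose in the same libraries (19 of 20 tested, summed level 635 to 665 CPM in the EV pools and 1293 to 1328 CPM in the RNAi pools), and their part in the value of dyf-7 was not tested.

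The 6 cut genes, the cuticlins named first, did not move together. Of the 5 with enough reads, cut-3 and cut-2 fell, cut-6 and cut-4 rose, and cut-5 did not pass the threshold. cut-3, a ZP cuticlin needed for the alae of the first larval stage, was at 4.66, 4.73 and 9.83 CPM in the EV pools and at 0.885, 0.691 and 0.878 CPM in the RNAi pools. EV pool 3 stood apart from the other EV pools, but no RNAi pool came near any EV pool, and cut-3 fell 7.90-fold (−2.98 ± 0.29, adjusted p = 3.49e-09). Without EV pool 3 its log2 fold change was −2.53 (adjusted p = 3.49e-13). The exons of cut-3 (chromosome II, 8445169 to 8446831) overlap those of evl-20 on the other strand, which had a log2 fold change of −0.66.

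cut-2 (chromosome V, 13414949 to 13416064) encodes a small cuticlin of the insoluble cuticle fraction that can be cross-linked through its tyrosines. It was at 6.81, 10.6 and 17.7 CPM in the EV pools and at 6.03, 4.92 and 5.04 CPM in the RNAi pools. The lowest EV pool was just above the highest RNAi pool. cut-2 fell 2.23-fold (−1.16 ± 0.22, adjusted p = 3.77e-05), and without EV pool 3 its log2 fold change was −0.75 (adjusted p = 1.31e-05).

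cut-6, which takes part in dauer alae and body shape, was at 2.67, 2.78 and 3.62 CPM in the EV pools and at 5.51, 4.88 and 4.48 CPM in the RNAi pools. Every RNAi pool was higher, and cut-6 rose 1.63-fold (0.71 ± 0.14, adjusted p = 7.63e-05). cut-4 was weak, at 0.560, 0.509 and 0.832 CPM in the EV pools and 1.13, 0.935 and 1.02 CPM in the RNAi pools. The groups were separate, and cut-4 rose 1.61-fold (adjusted p = 0.0197). This call was lost without EV pool 1 (adjusted p = 0.05) or 2 (0.108), without RNAi pool 1 (0.0743), with RLE factors (0.0549) and with DESeq2 (0.164). cut-5, needed for alae in the first larval stage and in dauers, was at 2.37, 2.87 and 3.84 CPM in the EV pools and at 2.21, 3.13 and 2.59 CPM in the RNAi pools. The groups overlapped, and its log2 fold change of −0.21 had a 95% confidence interval of −0.59 to 0.16 (adjusted p = 0.261).

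Of the 29 cuticlin-like genes, 25 were tested; 15 fell, 5 rose and 5 did not pass the threshold, with a median log2 fold change of −0.64. They are relatives of the cuticlins by sequence, and no role is given here for single members. cutl-16 (chromosome II, 6441428 to 6443994) had the lowest fold change of the family. It was at 65.6, 72.3 and 67.5 CPM in the EV pools and at 6.23, 8.29 and 8.87 CPM in the RNAi pools. The groups were wide apart (8.83-fold lower, −3.14 ± 0.08, adjusted p = 6.91e-19). Its share of the family's summed CPM was 12.5%, 12.3% and 11.2% in the EV pools and 2.59%, 3.47% and 3.81% in the RNAi pools.

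The next 4 cuticlin-like genes fell by 2.75-fold to 4.92-fold. cutl-2 went from 6.60, 6.82 and 6.91 CPM in the EV pools to 1.61, 1.42 and 1.06 CPM in the RNAi pools (4.92-fold lower, −2.30 ± 0.15, adjusted p = 1.67e-12). cutl-9 went from 15.04, 14.1 and 14.6 CPM to 2.86, 2.81 and 3.33 CPM (4.88-fold lower, −2.29 ± 0.10, adjusted p = 2.51e-15). In both genes the EV pools lay within 1 CPM of each other and far above all RNAi pools. cutl-28 went from 5.43, 5.81 and 6.05 CPM to 1.41, 1.71 and 1.53 CPM (3.73-fold lower, adjusted p = 3.16e-11). cutl-21 went from 10.9, 13.3 and 11.9 CPM to 4.46, 4.55 and 4.16 CPM (2.75-fold lower, adjusted p = 9.79e-12). Neither gene had groups that overlapped.

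The other 10 cuticlin-like genes that fell did so by 1.31-fold to 2.46-fold. cutl-10 (2.46-fold), cutl-6 (2.31-fold) and cutl-20 (2.26-fold) led them, followed by cutl-29 (1.97-fold), cutl-17 (1.85-fold), cutl-11 (1.84-fold), cutl-27 (1.61-fold), cutl-25 (1.56-fold), cutl-8 (1.42-fold) and cutl-24 (1.31-fold). All 10 had groups that did not overlap, although in cutl-17 the lowest EV pool (0.776 CPM) and the highest RNAi pool (0.772 CPM) nearly met. cutl-27 was weak, at 0.662 ± 0.0466 CPM in the EV pools and 0.408 ± 0.0388 CPM in the RNAi pools (SD, n = 3 per group). Its call (adjusted p = 0.0378) was lost when any pool other than EV pool 3 was left out, with adjusted p of 0.0584 to 0.11. It was also lost with DESeq2 (0.0861), with library totals (0.0696), with no low-count filter (0.0761) and with upper-quartile factors (0.181). cutl-24 was not called with upper-quartile factors (adjusted p = 0.173).

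The cuticlin-like genes that rose were cutl-26, cutl-15, cutl-12, cutl-19 and cutl-22. cutl-26 was at 6.85, 6.28 and 6.85 CPM in the EV pools and at 14.2, 12.4 and 12.9 CPM in the RNAi pools (1.98-fold higher, 0.99 ± 0.09, adjusted p = 6.6e-10). cutl-15 was at 5.26, 4.94 and 5.73 CPM and at 10.6, 10.5 and 10.8 CPM (1.00 ± 0.09 on the log2 scale, adjusted p = 1.46e-09). In both genes every RNAi pool was above every EV pool, with a wide gap. The exons of cutl-15 overlap those of T21B10.4 on the other strand, which had a log2 fold change of −0.99, opposite in sign to that of cutl-15.

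The other 3 that rose were weak. cutl-12 went from 1.11 ± 0.196 to 1.87 ± 0.455 CPM (1.69-fold, adjusted p = 0.00327). cutl-22 went from 0.220 ± 0.123 to 0.562 ± 0.159 CPM (2.45-fold, adjusted p = 0.00541), from raw counts of 4, 12 and 4 in the EV pools and 18, 10 and 12 in the RNAi pools. Scaled for depth, its groups did not overlap, but the call was lost with DESeq2 (adjusted p = 0.0503). cutl-19 went from 0.328 ± 0.172 to 0.639 ± 0.134 CPM (SD, n = 3 per group). Its highest EV pool and its lowest RNAi pool nearly met, at 0.512 and 0.523 CPM. Its rise (1.85-fold, adjusted p = 0.0258) was lost without EV pool 1 (0.101) or 2 (0.0901), without RNAi pool 2 (0.0539) or 3 (0.114), with RLE factors (0.0543) and with DESeq2 (0.14).

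Besides cut-5, the genes that did not pass the threshold were cutl-23, cutl-13, cutl-18, cutl-3 and cutl-14. The 95% confidence intervals of their log2 fold changes lay within −0.53 and 0.76. The narrowest was that of cutl-23 (−0.12, interval −0.37 to 0.14), whose exons overlap those of rev-3 on the other strand (log2 fold change −1.58). cutl-14 had groups that did not overlap, at 1.29, 1.38 and 1.41 CPM and at 1.69, 1.99 and 1.57 CPM, but an adjusted p of 0.0774. It was called higher with upper-quartile factors (0.00565) and with library totals (0.0302), and cutl-3 with upper-quartile factors (0.0354).

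The 5 genes with too few reads to be tested were cut-1, cutl-1, cutl-4, cutl-5 and cutl-7. cut-1, a cuticlin of dauer alae, had raw counts of 9, 6 and 11 in the EV pools and 7, 11 and 6 in the RNAi pools. cutl-7 had 5, 6 and 9 against 1, 2 and 2, and cutl-4 had 5, 7 and 5 against 2, 1 and 3. cutl-5 had 11, 7 and 11 against 10, 3 and 2, and cutl-1 had 3, 4 and 4 against 4, 4 and 2. Tested with no low-count filter, cutl-7 was called lower (log2 fold change −1.63, adjusted p = 0.0396), and the other 4 did not pass the threshold (adjusted p = 0.158 to 0.857).

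**Figure D2:**
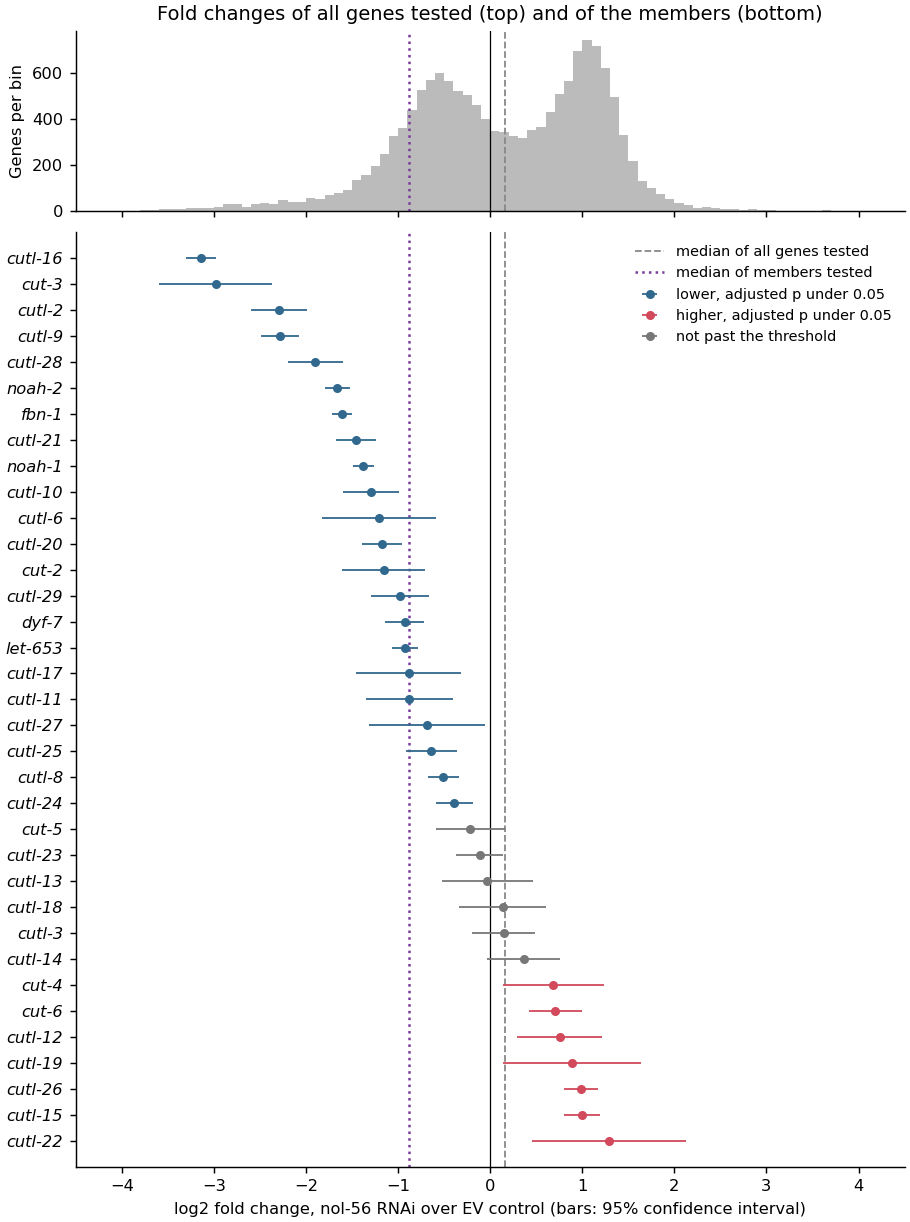
Top, histogram of the log2 fold changes of all 14677 genes tested (4 genes lie outside the range of ±4.5 shown). Bottom, log2 fold change of each of the 35 tested genes with its 95% confidence interval; blue genes fell, red genes rose and grey genes did not pass the threshold. The median of the family, −0.88 (dotted line), lies to the left of the median of all genes tested, 0.16 (dashed line).

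Divided by exon length, levels in the EV pools fell into a top group of 3 genes and a long tail. noah-2 (37.2 CPM per kb of exon), cutl-16 (36.7 CPM per kb) and noah-1 (35.04 CPM per kb) had overlapping pools and could not be ordered. cut-2 (12.6 CPM per kb) and let-653 (12.2 CPM per kb) followed, also overlapping, and then fbn-1 (9.29 CPM per kb), cutl-20 (8.39) and cutl-9 (8.03). At the other end were cutl-4 (0.128 CPM per kb) and cutl-1 (0.0917).

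In the RNAi pools the order per length was noah-1 (13.5 CPM per kb), noah-2 (11.8), cutl-26 (8.01), cutl-15 (7.17) and let-653 (6.40). Each of the first 4 lay above the next gene in every pool. cutl-26 moved from place 15 in the EV pools to place 3 and cutl-15 from place 17 to place 4. cutl-16 moved from place 2 to place 8, cut-3 from place 13 to 28 and cutl-9 from place 8 to 20.

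**Figure D3:**
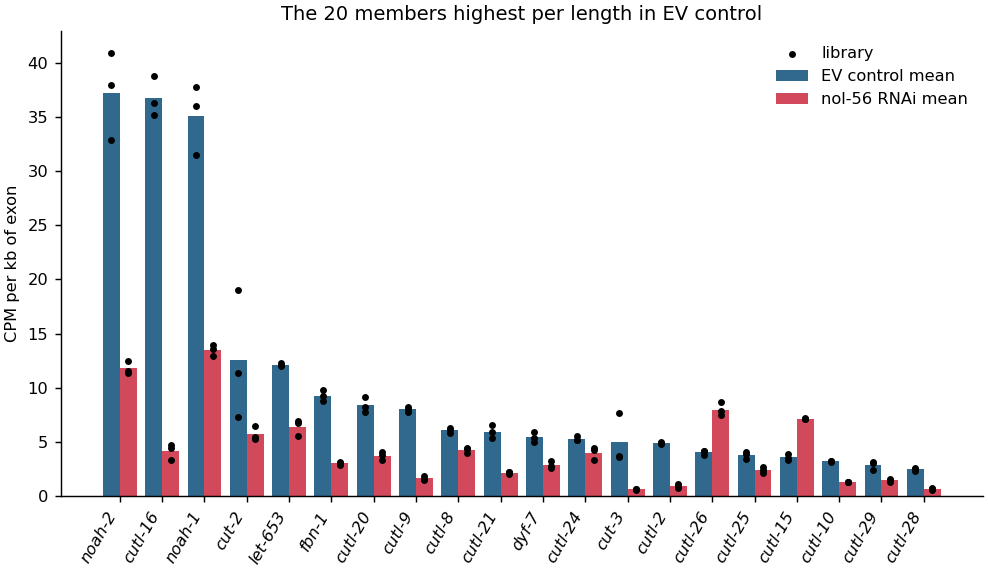
Level per kb of exon (CPM per kb) of the 20 genes highest in EV; bars are group means, blue for EV and red for nol-56 RNAi, and black points are the 3 libraries of each group. noah-2, cutl-16 and noah-1 stand at 35.04 to 37.2 in EV, and only cutl-26 and cutl-15 of those shown have a higher mean on nol-56 RNAi.

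The summed level of the family rested on few genes. noah-1, noah-2, fbn-1 and cutl-16 together held 67.5 ± 0.658% of the family's CPM in the EV pools and 49.9 ± 0.299% in the RNAi pools (SD, n = 3 per group). The summed level of the other 36 genes was 173, 186 and 199 CPM in the EV pools, and 120.2, 119 and 118 CPM in the RNAi pools. The groups still did not overlap, with a ratio of 1.56 in place of 2.41. Among members with a mean of at least 5 CPM over both groups, 12 of 15 fell and 2 rose. In that range 52.9% of all genes tested fell and 40% rose. Below 5 CPM, 10 of the 20 tested members fell and 5 rose, where 18.4% of all genes tested fell and 60.6% rose.

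Some cuticlins varied among the EV pools more than among the RNAi pools. The summed level of the cut genes was 17.5, 21.6 and 36.1 CPM in the EV pools, but 16.04, 15 and 14.3 CPM in the RNAi pools. The coefficient of variation (SD over mean) in the EV pools was 47.2% for cut-2 and 46.3% for cut-3. Counting alone gives 5.31% and 7.24% at their counts. Of the 2070 genes with an EV mean of 5 to 15 CPM, 4 had a coefficient above 40%, cut-2 and cut-3 among them, and the median was 7.06%. The range and the bound were chosen with the values of cut-2 and cut-3 known. Over the tested family the median coefficient was 9.24% in the EV pools and 10.7% in the RNAi pools. Over all genes tested it was 6.28% and 5.63%. cut-5 was also highest in EV pool 3, at 3.84 CPM against 2.37 and 2.87 CPM.

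Some cuticle collagens had the same high pool. sqt-3, a collagen needed for body shape, was at 56.2, 73.5 and 107.6 CPM in the EV pools, and dpy-17, a collagen that acts with it, at 62.9, 73.97 and 101.7 CPM. Both were highest in EV pool 3 and lowest in EV pool 1, as cut-2 and cut-3 were. noah-1 had the same order over a narrower range, and cutl-16 was highest in EV pool 2. Of the 35 tested members, 19 were highest in EV pool 3, 11 in EV pool 2 and 5 in EV pool 1. The shares over all genes tested were not counted. Without EV pool 3, 22 members were called lower and 7 higher, and the median log2 fold change was −0.70.

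**Figure D4:**
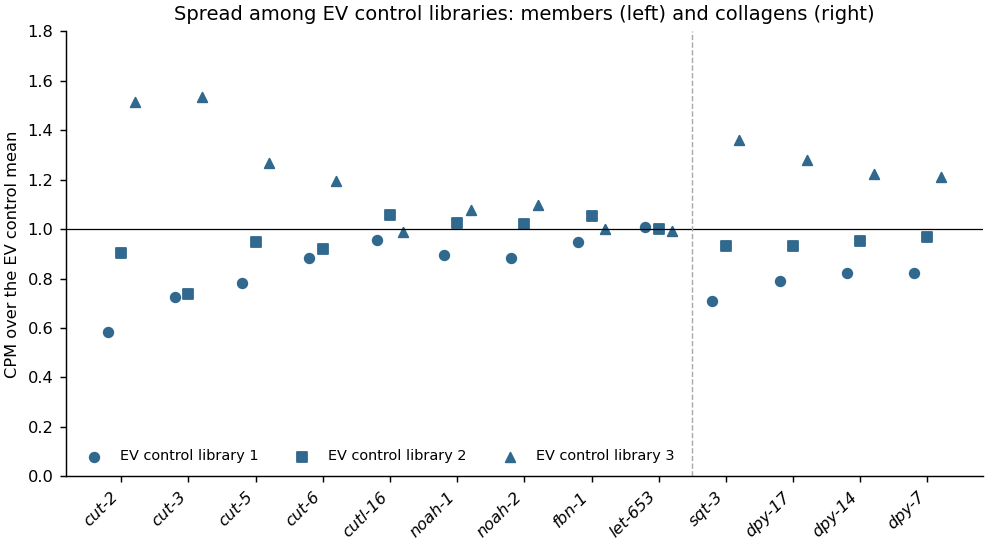
Level in each EV library divided by the EV mean, for 9 family members (left of the dashed line) and 4 cuticle collagens (right). Circles, squares and triangles are EV libraries 1, 2 and 3; cut-2, cut-3 and the collagens are highest in library 3, whereas let-653 and cutl-16 lie near 1 in every library.

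The genes were spread over all 6 chromosomes. Calls over all genes tested differ between chromosomes, so the members are set beside them. On chromosome X, 4 of 6 tested members fell and none rose, where 19.8% of all genes tested fell and 66.7% rose. On I, 5 of 7 fell and none rose, where 54.3% of all genes fell and 32% rose. On IV, 6 of 7 fell and 1 rose, against 43.1% and 45.8%. On II, 4 of 7 fell and 3 rose, against 47% and 40.8%. On III, 2 of 5 fell and 2 rose, against 52.9% and 36.2%. On V, 1 of 3 fell and 1 rose, against 29.3% and 59.8%. Few members were close to each other: 3 pairs lay within 50000 bases. cutl-27 and let-653 are next to each other on the plus strand of chromosome IV, 1478 bases apart, and both fell (log2 fold changes −0.69 and −0.93). cutl-28 and cutl-26, on opposite strands of chromosome IV with 10358 bases and 1 protein-coding gene between them, went opposite ways. The log2 ratio of cutl-26 to cutl-28 reads was 0.34, 0.11 and 0.18 in the EV pools and 3.34, 2.86 and 3.08 in the RNAi pools. The groups were far apart, and the pair was chosen for this ratio after its values were seen. The third pair, cutl-1 and cut-2 on chromosome V, includes a gene that could not be tested.

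The exons of 12 of the 40 genes overlap those of another counted gene, in 11 cases on the other strand. The same-strand case is cutl-20, which overlaps shc-1 (log2 fold change −0.02). For cutl-11 and cutl-17, which fell, the partners T04F8.8 (1.26) and cpin-1 (1.10) rose, and for cutl-6 the partner nuo-6 (−0.51) fell. Among the 24 tested genes with no overlap, 15 fell, 6 rose and 3 did not pass the threshold.

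Other components of the matrix and the cuticle did not all follow the cuticlins. Their counts are to be read beside the shares over all genes tested, 40.8% lower and 47.2% higher. Of 15 apical matrix partners, among them leucine-rich repeat proteins and lipocalins of the same matrix, 10 fell, 4 rose and 1 did not pass the threshold (median log2 fold change −0.63). Most of their mean summed level in the EV pools, 1141 CPM, came from egg-6. The leucine-rich repeat genes sym-1, let-4 and egg-6 fell from 67.5 ± 5.80 to 21.03 ± 0.580 CPM, from 17.4 ± 2.34 to 5.41 ± 0.305 CPM and from 643 ± 36.5 to 303 ± 13.1 CPM. The lipocalin gene lpr-3 fell from 36.4 ± 4.60 to 14.2 ± 0.599 CPM (SD, n = 3 per group for each). Their log2 fold changes of −1.68, −1.70, −1.08 and −1.36 stand beside those of noah-1 (−1.38), noah-2 (−1.66) and fbn-1 (−1.61).

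The furrow and shape collagens were divided: 9 of 18 tested fell, 3 rose and 6 did not pass the threshold (median −0.68). dpy-14 (−1.71), dpy-17 (−1.98) and sqt-3 (−2.13) were among those that fell. Of the 6 collagens needed for the circumferential furrows of the cuticle, named after their values were seen, dpy-2 (−1.48), dpy-3 (−1.65), dpy-7 (−1.45) and dpy-10 (−1.66) fell. The other members of that group, dpy-8 (0.58, from 1.03 to 1.59 CPM) and dpy-9 (0.71, from 1.24 to 2.04 CPM), rose. Both were weak, and for dpy-8 (edgeR adjusted p = 0.037) the groups overlapped, with EV pool 2 at 1.47 CPM and RNAi pool 3 at 1.39 CPM. rol-6 rose from 169 ± 5.49 to 364 ± 15.9 CPM (1.11). The strain is known to carry a rol-6 marker transgene, whose reads could not be told apart from those of the native gene. Without rol-6 the summed level of the list was 238, 287.5 and 375 CPM in the EV pools and 98.7, 98.5 and 96.2 CPM in the RNAi pools. The groups were far apart, with a ratio of 3.07 (exact two-sided permutation test, p = 0.1, the smallest possible here). With rol-6 they overlapped, at 401 to 547 CPM and 444 to 478 CPM (same exact permutation test, p = 0.9). The summed level of the cuticlin and matrix family was 221%, 204% and 161% of that of these collagens without rol-6 in the EV pools and 244%, 242.5% and 242% in the RNAi pools. Against these collagens the family was thus higher in every RNAi pool (exact two-sided permutation test, p = 0.1, the smallest possible here). With rol-6 the ratio went the other way, at 131%, 127% and 110% in the EV pools and 50.4%, 51.4% and 52.5% in the RNAi pools. Most of the EV sum without rol-6, 300.1 CPM, came from sqt-3 (79.1 CPM), dpy-17 (79.5 CPM) and dpy-14 (74.7 CPM). The ratio without these 3 collagens was not tested.

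Enzymes that process and cross-link cuticle proteins went the other way. Of 15 tested, 10 rose, none fell and 5 did not pass the threshold (median 0.50). dpy-31, which encodes a protease that processes cuticle collagens, rose from 35.8 ± 0.0655 to 84.2 ± 1.47 CPM (1.23). bli-3, which encodes the dual oxidase for tyrosine cross-links, rose from 30.5 ± 1.49 to 55.4 ± 0.606 CPM (0.86), and its tetraspanin partner tsp-15 from 6.85 ± 0.0324 to 16.3 CPM (2.38-fold). The peroxidase gene skpo-3 (1.10) rose as well, and so did mlt-7 (0.80), another peroxidase gene, named after its values were seen. Genes of the epidermal attachment structures, which join the cuticle to muscle through the epidermis, rose in 7 of 9 cases and fell in 1 (median 0.75). mup-4 (1.01), unc-23 (1.11), ifb-1 (0.98) and pat-12 (0.75) had the smallest p.

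Moulting genes rose in 9 of 17 cases and fell in 7 (median 0.43), shares close to those over all genes tested. mlt-11 (−1.20), which encodes a secreted protease inhibitor, fell, while the kinase gene nekl-2 (1.19), the endocytic receptor gene lrp-1 (0.67) and mlt-4 (1.71) rose. Named after their values were seen, mlt-8 (−1.49), mlt-9 (−0.55) and mlt-10 (−1.64) fell too, while mlt-2 (0.82) and mlt-3 (1.09) rose. Of 20 epidermal and moulting transcription factors tested, 9 rose and 10 fell (median −0.08), again close to the background in both directions. The seam regulator egl-18 (−1.46), the moulting-timer gene lin-42 (−1.65) and the epidermal fate gene elt-1 (−1.15) fell, and elt-3 (1.00), of the main body epidermis, rose. Chosen after their values were seen, nhr-23 (−0.74) and nhr-25 (−0.65), nuclear receptor genes needed for moulting, fell. The other nuclear receptor genes tested on that list, nhr-85 (0.33), nhr-41 (0.72) and nhr-74 (1.20), rose.

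**Figure D5:**
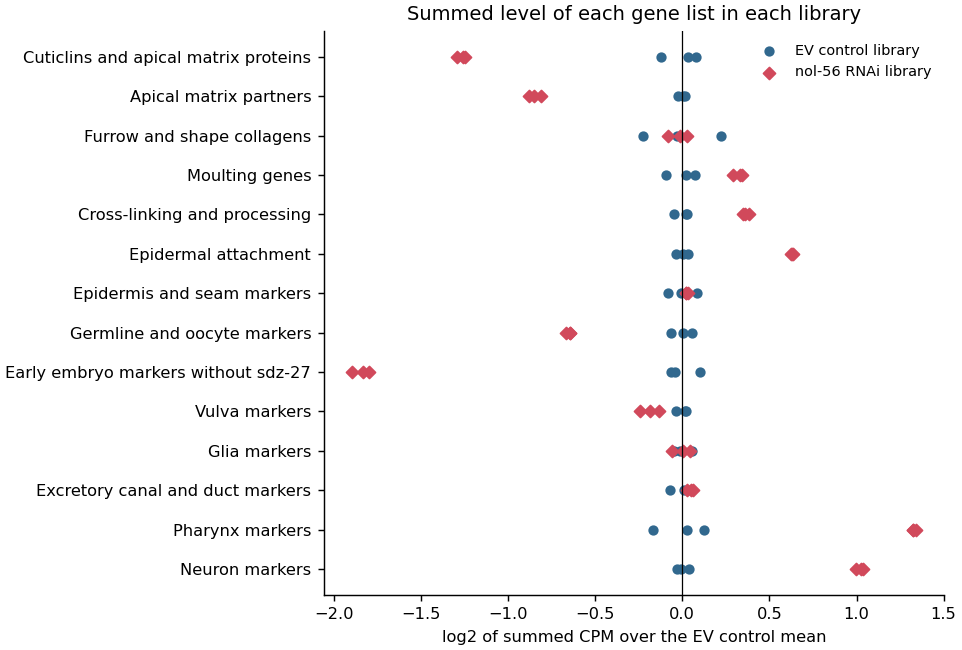
Summed CPM of each gene list in each library, as log2 of its ratio to the EV mean; circles are EV and diamonds nol-56 RNAi libraries. The cuticlin and matrix family and its apical matrix partners lie to the left on nol-56 RNAi, as do the germline markers, while the cross-linking, attachment, pharynx and neuron lists lie to the right; the collagen and epidermis lists are drawn with rol-6, without which both are lower on nol-56 RNAi.

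Markers of other tissues moved in the same libraries. The calls of every marker list are to be read beside the shares over all genes tested, 40.8% lower and 47.2% higher. Markers of epidermis and seam, the tissue that makes most of the cuticle, fell in 10 of 20 tested cases and rose in 6. Without rol-6, which is on this list too, their summed level was 649, 681 and 739 CPM in the EV pools and 494, 506 and 529.7 CPM in the RNAi pools. Every RNAi pool was lower, with a ratio of 1.35, against 2.41 for the family. Most of this EV sum came from ajm-1 (201.5 CPM, and 201.4 CPM in the RNAi pools) and lin-26 (177.8 and 124.2 CPM). Both were named after their values were seen, and the ratio without them was not tested. With rol-6 the sums overlapped, at 812 to 911 CPM and 872 to 877 CPM. None of the 22 genes was at 0 in all libraries, and the part of the epidermal markers in the family's fall was not tested. Germline and oocyte markers fell in 33 of 35 cases and rose in 2, with a summed level of 27360 to 29810 CPM in the EV pools and 18060 to 18340 CPM in the RNAi pools. Early zygotic embryo markers fell in 17 of 19 tested cases and rose in 2, and none of the 28 genes found was at 0 in all libraries. Their summed level was 220.2 to 239 CPM in the EV pools and 308 to 315 CPM in the RNAi pools. Without sdz-27, left out after its values were seen, it was 159.8 to 179 CPM and 44.9 to 48.01 CPM. noah-1, noah-2, fbn-1, let-653, dyf-7 and several cuticlins are known to be active in embryos or larvae, and the part of embryos inside the worms in their falls was not tested.

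All 15 markers of body wall muscle rose, with a summed level without unc-54, whose promoter drives the transgene, of 3855 to 3977 CPM in the EV pools and 7486 to 7610 CPM in the RNAi pools. All 16 intestine markers rose, with a summed level of 3964 to 4221 CPM in the EV pools and 6493 to 6605 CPM in the RNAi pools. Somatic gonad markers rose in 6 of 11 cases and fell in 4, at 1579 to 1651 CPM and 1243 to 1276 CPM. Of 23 sperm markers 11 were tested, and 6 fell, 4 rose and 1 did not pass the threshold (median log2 fold change −1.96). The sperm marker sums overlapped, at 18.2 to 22.6 CPM in the EV pools and 21.9 to 25.8 CPM in the RNAi pools.

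Marker sums of tissues linked to let-653 and dyf-7 differed from each other, and each rested largely on a few genes, named after their values were seen. Excretory canal and duct markers stood at 648 to 705 CPM in the EV pools and 693 to 708 CPM in the RNAi pools, and 6 of 10 tested rose and 2 fell. Their largest genes went opposite ways, vha-8 from 273 to 323 CPM and aqp-2 from 239.6 to 117.4 CPM. Glia markers, which include cells that line sensory pores, stood at 286 to 307 CPM and 284 to 304 CPM, and 4 of 11 tested rose and 5 fell. Most of the glia sum in the EV pools came from lin-26, also on the epidermis list, which fell from 177.8 to 124.2 CPM. The sum of the vulva markers was lower in every RNAi pool, at 92.2 to 99.3 CPM against 106.5 to 110.7 CPM (exact two-sided permutation test, p = 0.1, the smallest possible here), although 7 of 11 rose and 2 fell. The 2 that fell, cdh-3 (42.3 to 15.4 CPM) and egl-26 (28.3 to 9.69 CPM), held most of the sum in the EV pools. Pharynx markers rose in 9 of 11 tested cases and none fell, with a summed level of 140.2 to 171 CPM and then 394 to 399 CPM; fbn-1, also active in the pharynx, fell.

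Set against other lists within each library, the family was lower in the RNAi pools against both epidermal attachment genes and germline markers. Against the collagens the direction depended on rol-6: the family was higher without it and lower with it. Its summed level was 41.98%, 45.5% and 45.9% of that of the epidermal attachment genes in the EV pools and 12.1%, 12.05% and 11.8% in the RNAi pools. Against the germline and oocyte markers it was 1.76%, 2.04% and 2.20% in the EV pools and 1.31%, 1.30% and 1.29% in the RNAi pools. In neither ratio did the groups overlap, and the scaling enters neither (exact two-sided permutation test, p = 0.1 for each, the smallest possible here). The fall was 3.72-fold against attachment genes and 1.54-fold against germline markers. The largest gene of the attachment sum was vab-10, named after its values were seen. It went from 619.5 to 830.3 CPM, and the ratio without it was not tested. The germline sum includes the 2 markers that rose, perm-2 and perm-4, named after their values were seen. perm-2 went from 1295 to 2505 CPM. perm-4 was at 2458, 2563 and 2373 CPM in the EV pools and at 5076, 5149 and 4933 CPM in the RNAi pools. Both raise the germline sum in the RNAi pools, and the ratio without them was not tested.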

How the data were processed

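RNA was extracted from pools of whole worms, selected for poly(A) tails and made into libraries with a stranded kit for an Illumina NovaSeq instrument, per the labels' protocols. The authors deposited whole-number read counts per gene, not normalized, and a DESeq2-normalized signal, which is the count over a library's size factor (0.832 to 1.23). That signal was used for this check alone. HTSeq 2.01, TopHat2 2.1.1, cutadapt 2.10 and DESeq2 1.36.0, and the build WBcel235, stand in the submitters' processing notes with no role or order. The strand setting and the treatment of reads with several matches are not given in the sources used here. Of 46934 rows, 22416 hold counts. Positions and exon lengths came from Ensembl 115 (WBcel235), in which 22406 genes were found. No sequences are shown.

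Counts were filtered with filterByExpr (14677 genes, at least 99.9% of counts kept), scaled with TMM and fitted with edgeR 4.0.16 in R 4.3.3, with group as the only term. The SE is the log2 fold change over the square root of the F statistic. The code was tested on simulated data. Alternatives were other scalings and filters, the replicate block, leaving out each library, DESeq2 1.42.0, limma-voom (limma 3.58.1), glmTreat at 1.5-fold, leaving out the 20 genes with most counts, and, chosen after seeing the data, only members without exon overlap. By a chi-square over genes, libraries of a group differed by more than counting alone gives (2.07 to 6.35 per degree of freedom). This cannot tell separate cultures from separate library preparations. Members and lists were chosen with earlier results of these data known. Every member could be named, with up to 4 genes of each matrix list by smallest p; others are said to be chosen after their values were seen. List names not found were elt-5, ifa-2, vet-4, vet-5 and sdz-22.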

Additional observations from a re-analysis of the deposited data

How the results depend on the processing

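The counts of 22 lower and 7 higher members were the same with the replicate block, limma-voom, no low-count filter and the 20 most counted genes left out, although with no filter cutl-27 was lost and cutl-7 gained. They were 20 to 22 and 5 to 9 with the other scalings, and 21 to 22 and 5 to 7 with each library left out. Above 5 CPM in 3 or more libraries, 17 members were tested, 14 fell and 2 rose; over all genes 4508 were then higher, with a median log2 fold change of −0.013 in place of 0.16. DESeq2 called 4 members higher and 21 lower, and glmTreat against 1.5-fold called 3 higher and 16 lower and, over all genes, 3236 lower. The median log2 fold change of members was −1.01 with RLE factors, −1.003 with DESeq2, −0.63 with upper-quartile factors, −0.785 with library totals, −0.78 with no filter, −1.03 with the 5 CPM filter, −0.81 for members without exon overlap, and −0.93 to −0.70 with each library left out. The difference in summed CPM, −334, was −266 with upper-quartile factors, −391 without the 20 most counted genes, and −362 to −323 with each library left out. With RLE factors, upper-quartile factors and library totals, the median of all genes tested moved the same way as that of members. It was 0.02, 0.41 and 0.25 in place of 0.16. Under the 5 CPM filter 9931 genes were tested. The causes of these shifts were not tested. No tested member changed direction past the threshold under these alternatives. Same-numbered libraries did not deviate together (correlations −0.09, −0.01 and −0.02), so the numbers were not taken as pairs; the replicate block gave 6893 higher and 5964 lower genes against 6927 and 5990. Leaving rol-6 out of the collagen and epidermis sums and unc-54 out of the muscle sum was chosen after seeing the data. Depth limits the 5 members under the filter and the calls of members near 1 CPM or below.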

Other observations

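Outside the family, 5 counted genes carry a ZP domain in the authors' descriptions, a set formed after the data were seen. Of these, 3 were tested. rocf-1 fell from 2.36 ± 0.879 to 1.68 ± 0.365 CPM (log2 fold change −0.54 ± 0.23 SE, edgeR adjusted p = 0.0328). The gene ram-5, one of the apical matrix partners and needed for the shape of male tail rays, rose from 0.347 ± 0.152 to 0.660 ± 0.0202 CPM (0.86 ± 0.33, edgeR adjusted p = 0.0211). T01D1.8 did not pass the threshold (−0.20, edgeR adjusted p = 0.609). F46G11.6 and R52.6 had total counts of 30 and 20 over all libraries and were not tested.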
